A study of Mus musculus with 8 samples.

Results

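The Slc25a genes encode the mitochondrial carrier family, transport proteins found mostly in the inner mitochondrial membrane. Members were the listed genes whose symbol is Slc25a followed by digits and whose level reached 1 FPKM, a level scaled for transcript length and library size, in at least 2 of the 8 libraries. This rule kept 38 of the 47 Slc25a symbols among 47719 listed genes. Of the other 9, Slc25a53 and Slc25a35 reached 1 FPKM in day 14 replicate 1 alone, at 1.87 and 1.05 FPKM, and Slc25a54 was listed at 0 in every library. The weakest member kept was Slc25a36, which carries pyrimidine nucleotides and passed with 1.33 FPKM in day 2 replicate 1 and 1.27 FPKM in day 14 replicate 1.

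RNA was sequenced from the livers of wild-type C57BL/6 mice. The groups were normal control mice aged 10 weeks (2 libraries), mice 2 days after extended hepatectomy, an operation that takes out most of the liver (4 libraries), and mice 14 days after it (2 libraries). The age of the hepatectomy mice is not given. The study tested capsules holding proliferating human hepatocyte organoids: its design names EMC-treated and eLO-treated mice at day 2 and eLO-treated mice at day 14. No label places a day 2 library in either treatment, so the treatments were not compared, and surgery, treatment and time cannot be told apart between the groups. The title of day 2 replicate 1 reads d1 although its age label reads day 2, and TVR in the title of day 2 replicate 3 is not explained. Nothing in the labels states that each library is a mouse of its own, and the p-values here measure the spread between libraries only.

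Mitochondrial carriers are small proteins made in the cytosol, threaded through the outer membrane and inserted into the inner membrane by the TIM22 complex. Each exchanges or imports a narrow set of solutes, among them ADP and ATP, phosphate, citrate, amino acids, acylcarnitines, coenzymes and iron. In the liver they join the matrix and cytosolic parts of the urea cycle, gluconeogenesis, fatty acid synthesis and fatty acid oxidation.

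Slc25a42, Slc25a16 and Slc25a45 were the 3 members that passed the test both between day 2 and control and between day 14 and day 2, and the sequences upstream of their start sites are shown for that reason. Each window holds 220 bases on the gene's own strand, from 250 to 31 bases before the RefSeq start site on GRCm38.p6. Capitals mark the motifs found on either strand. Slc25a42 lies on the minus strand with its window at chr8:70212312-70212531, Slc25a16 on the plus strand at chr10:62920383-62920602 and Slc25a45 on the plus strand at chr19:5877572-5877791. No annotated exon overlaps these 3 windows.
Slc25a42: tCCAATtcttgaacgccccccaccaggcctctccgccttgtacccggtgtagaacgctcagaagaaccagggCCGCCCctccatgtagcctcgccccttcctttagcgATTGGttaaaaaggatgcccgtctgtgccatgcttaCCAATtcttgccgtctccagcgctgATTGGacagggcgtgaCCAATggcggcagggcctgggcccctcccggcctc
Slc25a16: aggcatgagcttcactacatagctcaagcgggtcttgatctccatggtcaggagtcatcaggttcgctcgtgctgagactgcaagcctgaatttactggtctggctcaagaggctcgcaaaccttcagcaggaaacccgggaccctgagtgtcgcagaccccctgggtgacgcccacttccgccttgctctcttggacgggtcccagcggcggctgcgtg
Slc25a45: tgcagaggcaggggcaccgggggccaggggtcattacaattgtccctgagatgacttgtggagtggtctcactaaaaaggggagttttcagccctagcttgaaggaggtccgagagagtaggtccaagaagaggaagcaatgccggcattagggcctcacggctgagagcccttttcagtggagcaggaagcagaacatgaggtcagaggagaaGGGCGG

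The motifs searched, on both strands, were the CCAAT box (CCAAT), the GC box (GGGCGG), the E-box (CACGTG), the cyclic AMP response element (TGACGTCA), the NRF-1 element and the DR1 nuclear receptor element. The Slc25a42 window held 5 CCAAT boxes, at 249, 142, 106, 81 and 65 bases before the start site, and 1 GC box at 178 bases. A count of 5 or more CCAAT boxes was found in 0.134% of the 32851 promoter windows of the same length. The cut-off of 5 was taken from the Slc25a42 window, the highest count among windows of members lower at day 2. That share describes the window and is not a test. The Slc25a45 window held 1 GC box, at 36 bases before the start, and the Slc25a16 window held none of the 6 motifs. Some genes have several windows, so the members were counted against genes, with a gene counted once if any of its windows held the motif. Of the 31 members with a window, 20 held a GC box (64.5%, against 31.2% of 27025 genes) and 15 a CCAAT box (48.4%, against 34.6%). An E-box stood in 5 members (16.1%, against 5.73%) and a cyclic AMP response element in 2 (6.45%, against 1.3%). The members had passed the filter on FPKM, while the 27025 genes and their windows were not filtered by level. These shares are therefore not on equal terms, and shares among expressed genes alone were not measured. The 31 members have 40 windows in all. The NRF-1 and DR1 elements were in none of these, and in 0.554% and 0.0304% of all windows. A match is a run of letters in a window, and binding was not measured.

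The 9 members that passed the test in at least 1 comparison are spread over the genome. In the GENCODE annotation of GRCm38 the genes lower at day 2 lie as follows: Slc25a42 (ENSMUSG00000002346) at chr8:70184340-70212305 on the minus strand, Slc25a16 (ENSMUSG00000071253) at chr10:62920633-62946498 on the plus strand, Slc25a45 (ENSMUSG00000024818) at chr19:5877808-5885878 on the plus strand, Slc25a21 (ENSMUSG00000035472) at chr12:56712634-57197472 on the minus strand, Slc25a44 (ENSMUSG00000050144) at chr3:88410498-88425139 on the minus strand and Slc25a32 (ENSMUSG00000022299) at chr15:39091231-39112716 on the minus strand. Those called only in comparisons with day 14 are Slc25a15 (ENSMUSG00000031482) at chr8:22375551-22398597 on the minus strand, Slc25a12 (ENSMUSG00000027010) at chr2:71271063-71367749 on the minus strand and Slc25a14 (ENSMUSG00000031105) at chrX:48623413-48662294 on the plus strand. Each level is 1 value for the gene, and exons were not measured apart.

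Total FPKM lay between 686332 and 1298005 in the 8 libraries, 10796 to 11197 genes reached 1 FPKM, and 12340 genes passed the filter and were tested. Read counts are not given with FPKM, so the depth is unknown. The highest gene took 3.81 to 5.58% of total FPKM in 7 libraries and 11.1% in day 14 replicate 1. Hepatocyte marker genes (Alb, Apoa1, Ttr and Apob) summed to 43144 to 45731 FPKM in control. The sum was 34443 to 59477 FPKM at day 2 and 50982 to 53209 FPKM at day 14. None of the 4 was called in any comparison. Apoa1 was above both controls in every hepatectomy library, and Alb was below both in all of these but day 2 replicate 3. Summed neutrophil markers were 4.12 to 7.78 FPKM in control, 31.6 to 319 at day 2 and 15.5 to 67.8 at day 14, with Ly6g at 0 in some libraries. Of the 4 neutrophil markers tested, 3 rose at day 2 in limma's test, as did 2 of 4 monocyte markers. Summed monocyte markers were 32.9 to 42.0 FPKM in control, 29.1 to 71.5 at day 2 and 18.9 to 21.4 at day 14, where 1 of 4 was called lower than control. Erythroid markers were 340 to 415 FPKM in control, 350 to 1550 at day 2 and 1180 to 2579 at day 14. Most of that sum is globin, and of the 4 erythroid markers tested 1 was lower at day 2 and 1 higher at day 14 than control. Cycling-cell markers were 6.13 to 7.42 FPKM in control, 1.29 to 551 at day 2 and 7.57 to 8.01 at day 14. At day 14 Kupffer cell markers were 41.8 to 42.7 FPKM, against 76.6 to 93.3 in control, with 2 of 5 called lower. At day 2 they were 31.4 to 93.3 FPKM, with 1 of 5 called lower than control. Sinusoidal endothelium markers at day 14 were 38.9 to 48.1 FPKM against 68.9 to 72.3, with 1 of 5 called lower. Among them Stab1 was higher, at 20.5 and 12.7 FPKM against 9.33 and 9.42 in control, and the others were lower. Cholangiocyte markers at day 14 were 105 to 122 FPKM against 61.3 to 75.2, with none of 4 called. Most of that sum is Spp1, at 99.2 and 117 FPKM at day 14 and 58.0 and 71.3 in control. Sox9 overlapped its controls, and Krt7, Krt19 and Epcam were higher at low levels. In bulk tissue, fewer cells of a type and less RNA per cell cannot be told apart, and the part of these cells in the changes below was not tested.

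In normal liver the family was led by the carriers for ADP and ATP, phosphate and glutathione and by the liver-enriched carrier Slc25a47. By control means 8 members stood at 100 FPKM or more, 15 between 10 and 100, 12 between 1 and 10 and 3 under 1. Slc25a5, the main ADP/ATP carrier of liver, stood at 327 and 310 FPKM in the controls. Its muscle-type counterpart Slc25a4 stood at 2.79 and 2.29 FPKM, so that Slc25a5 was 117 and 135 times as high per length in these 2 libraries. The phosphate carrier Slc25a3 stood at 247 and 240 FPKM and the glutathione carrier Slc25a39 at 207 and 226. Slc25a40, the glutathione carrier's near relative, stood at 1.93 and 1.80 FPKM. Slc25a47 was listed at 209 and 277 FPKM in the controls. Slc25a25, a calcium-regulated ATP-Mg/phosphate carrier, was at 141 and 177 FPKM, and the citrate carrier Slc25a1 at 128 and 124.

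All members together made 0.290 and 0.308% of total FPKM in the controls, 0.287 to 0.402% at day 2 and 0.119 and 0.195% at day 14. On the FPKM scale the sum was 2082 and 2251 in the controls, 2112 to 4187 at day 2 and 1550 and 2050 at day 14. The member at the top was Slc25a5 in both controls and in day 2 replicates 3 and 4. Slc25a47 led in day 2 replicates 1 and 2, with 19.5 and 30.4% of the family's FPKM, and Slc25a39 led in both day 14 libraries, with 16.6 and 16.3%. The 5 highest members of a library held 54.3 to 76.9% of the family's FPKM.

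**Figure D1:**
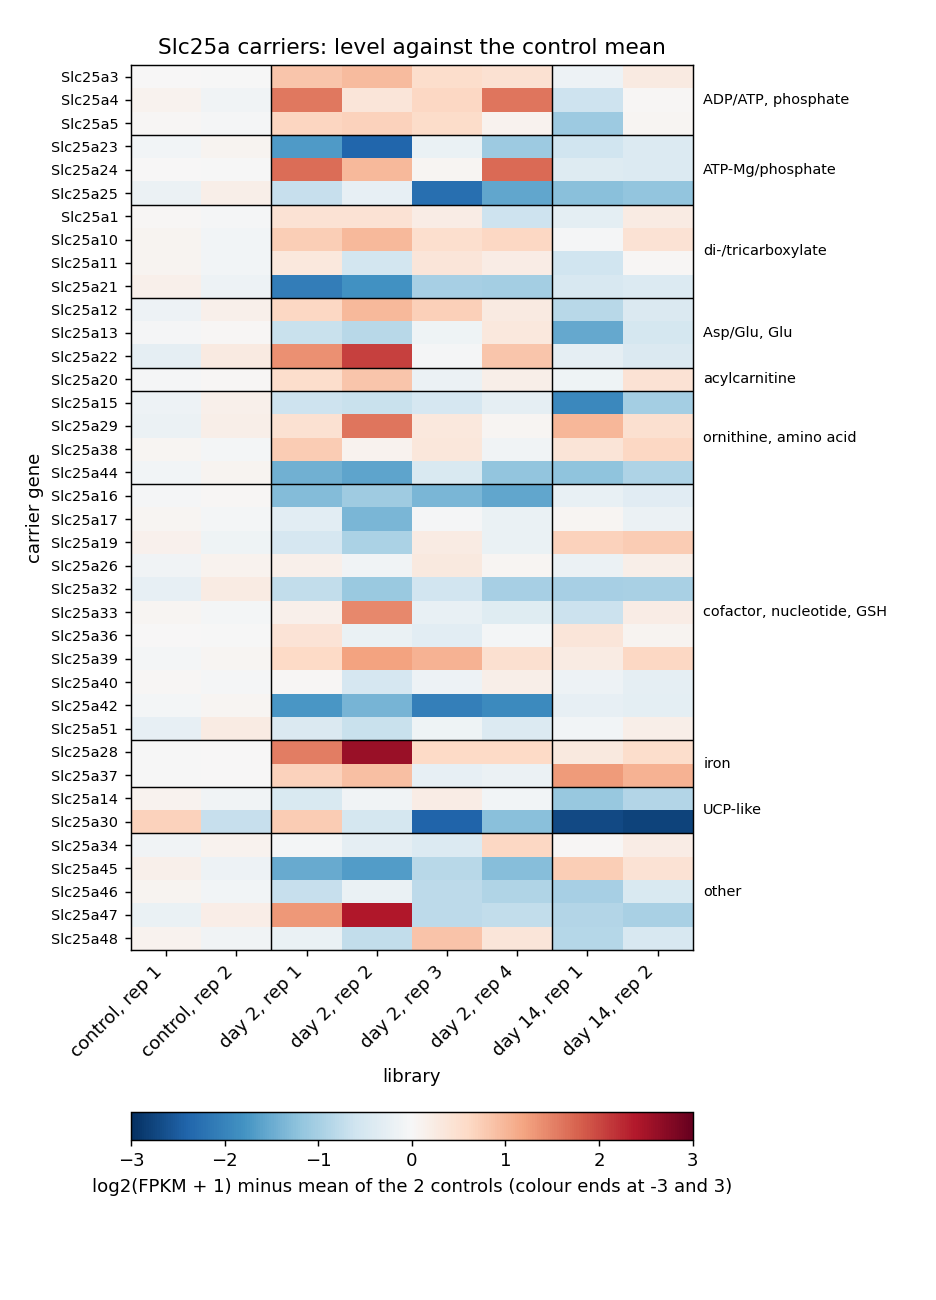
Level of the 38 Slc25a members (down, grouped by solute) in each of the 8 libraries (across, grouped as control, day 2 and day 14), with colour giving log2(FPKM + 1) minus the mean of the 2 controls, red for higher and blue for lower. Slc25a42, Slc25a16 and Slc25a45 were lower in the 4 day 2 libraries than in the libraries of the other groups, and Slc25a47 was at 597 and 1274 FPKM in day 2 replicates 1 and 2 against 138 and 143 FPKM in replicates 3 and 4.

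At day 2 after hepatectomy 6 carriers fell against normal control and none passed the test as higher. Slc25a42 and Slc25a16, both tied to coenzyme A in the matrix, fell by 1.78 and 1.33 on the log2 scale. Slc25a32, a folate and FAD carrier, the oxoadipate carrier Slc25a21, the branched-chain amino acid carrier Slc25a44 and Slc25a45, whose substrate is less settled, fell as well. The 6 were 15.8% of the 38 members, where 21.2% of all genes tested were called in either direction. By direction, 9.72% of all genes were higher and 11.5% lower. At an unadjusted limma p under 0.05 there were 16 members, or 42.1%, beside 37.5% of all genes. The 16 include Slc25a24, which passed the filter through day 2 alone. The median change of the members was 0.02 on the log2(FPKM + 1) scale, beside 0.05 for all genes, and 19 of the 38 lay above 0. Changes are on the log2(FPKM + 1) scale throughout, which understates those of low genes, and p-values are limma's, adjusted over all 12340 genes by Benjamini-Hochberg.

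Slc25a42 carries coenzyme A into the matrix in exchange for adenine nucleotides. It was at 38.3 and 41.4 FPKM in the controls, at 11.1, 14.5, 8.84 and 9.79 at day 2 and at 33.5 and 32.6 at day 14. The 4 day 2 libraries were all below the other 4, and the day 14 libraries were below the controls. The log2 change at day 2 was -1.78 ± 0.23 (SE, limma adjusted p = 0.0035, 2 controls and 4 day 2 libraries).

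Slc25a16, which is linked to coenzyme A in the matrix, was at 22.7 and 24.0 FPKM in the controls, at 8.82, 10.6, 8.37 and 7.26 at day 2 and at 19.7 and 18.2 at day 14. Its groups were ordered as those of Slc25a42, with no overlap. The log2 change at day 2 was -1.33 ± 0.20 (SE, limma adjusted p = 0.0061). The ratio of Slc25a42 to Slc25a16 was 1.69 and 1.73 in the controls, 1.26, 1.37, 1.06 and 1.35 at day 2 and 1.70 and 1.79 at day 14.

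Slc25a45 was at 17.5 and 14.0 FPKM in the controls, at 4.88, 4.25, 8.38 and 5.90 at day 2 and at 26.7 and 21.4 at day 14. Here the day 2 libraries were again the lowest, and both day 14 libraries were above both controls. The log2 change at day 2 was -1.32 ± 0.27 (SE, limma adjusted p = 0.015).

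Slc25a21 brings oxoadipate, an intermediate of lysine and tryptophan breakdown, into the matrix. It was at 9.09 and 7.06 FPKM in the controls, at 1.16, 1.57, 3.51 and 3.43 at day 2 and at 5.49 and 5.75 at day 14. Day 2 and control did not overlap, and day 14 lay between them. The log2 change at day 2 was -1.47 ± 0.34 (SE, limma adjusted p = 0.021). Its exons share 189 bases with Pax9 on the opposite strand, and whether counting used strand is not given in the sources used here.

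In the controls Slc25a44 was at 21.01 and 24.05 FPKM, and it was at 7.63, 6.84, 16.2 and 9.38 at day 2 and at 9.19 and 11.4 at day 14. Day 2 replicate 3 stood nearest to the controls, which stayed above every other library. Its log2 change at day 2 was -1.16 ± 0.32 (SE, limma adjusted p = 0.038). Slc25a32 was at 4.47 and 6.57 FPKM in the controls, at 2.86, 1.99, 3.35 and 2.24 at day 2 and at 2.22 and 2.29 at day 14. All hepatectomy libraries were below both controls. Its log2 change at day 2 was -0.85 ± 0.23 (SE, limma adjusted p = 0.037), and with the trend of each library with transcript length and GC content removed it was -0.27 (adjusted p = 0.46). Slc25a44 was just short of the threshold in that setting, with an adjusted limma p of 0.053. Both genes also lost the call without the filter on low values, at the same total FPKM, with only the 2 compared groups and without day 2 replicate 1 or 4. Over these the limma adjusted p was 0.056 to 0.080 for Slc25a44 and 0.051 to 0.078 for Slc25a32. Slc25a44 lost it as well without day 2 replicate 2 (limma adjusted p = 0.052).

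These day 2 calls rested on both controls: without control replicate 1 or without control replicate 2 no member passed limma's test, and 96 and 92 genes of all tested did. Members were called higher at day 2 in 3 of the alternatives. These were Slc25a12 with the length and GC trend removed, Slc25a4 without day 2 replicate 2, and Slc25a22 and Slc25a24 without day 2 replicate 3. Slc25a24 passed the filter on FPKM through day 2 alone, so that call follows from the filter. Without either control the log2 change of Slc25a42 was -1.83 and -1.72, with limma adjusted p of 0.063 and 0.068.

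**Figure D2:**
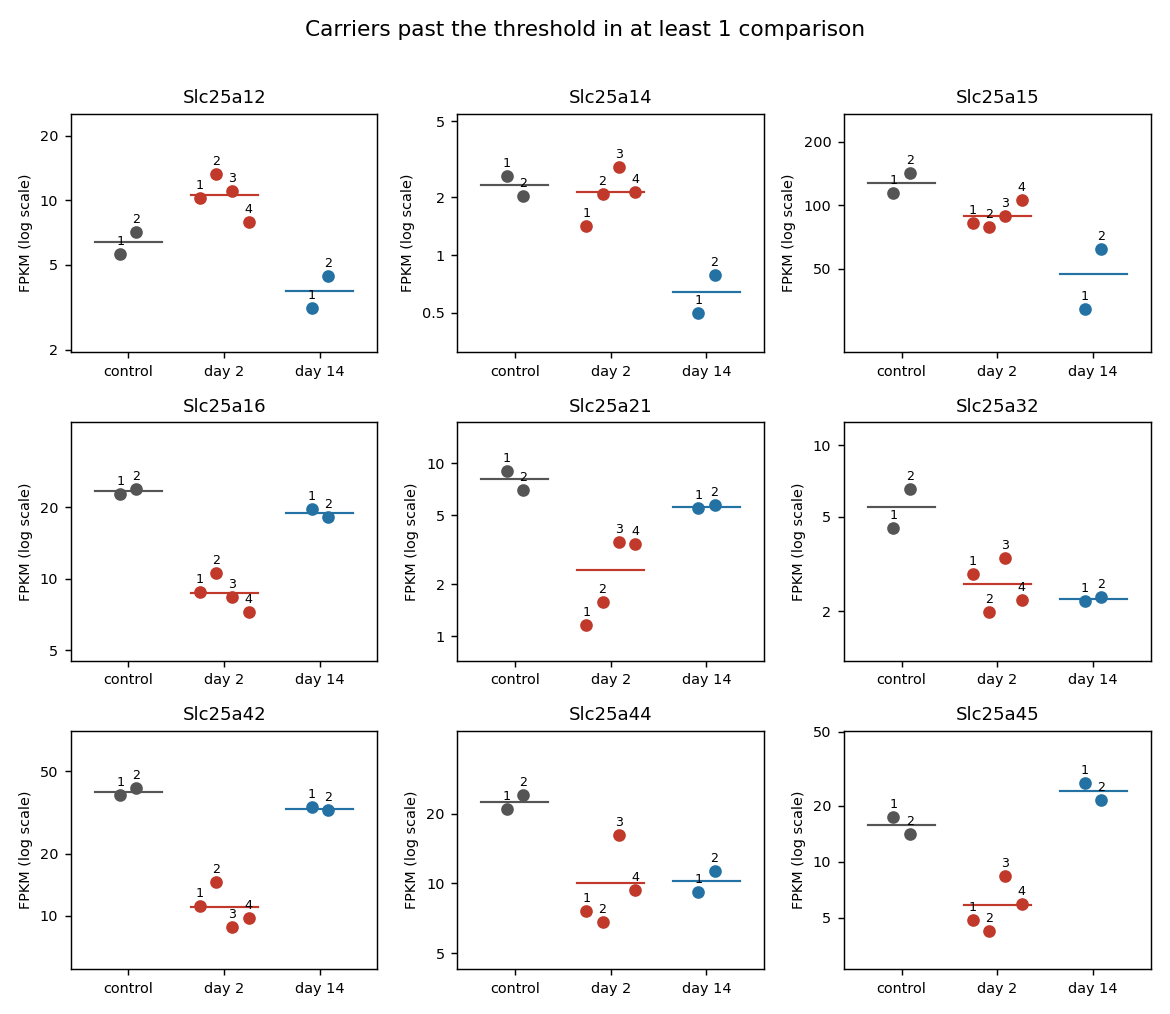
FPKM on a log axis in every library of the 9 members called in at least 1 comparison, 1 panel per gene, with numbered points for replicates and horizontal lines for group means. In the panels of Slc25a42, Slc25a16 and Slc25a45 the day 2 points sit below all control and day 14 points.

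By solute, the calls at day 2 fell on 4 of the 10 role lists. Of the ADP/ATP and phosphate carriers 0 of 3 were called, of the ATP-Mg/phosphate carriers 0 of 3, of the aspartate/glutamate and glutamate carriers 0 of 3, and of the iron carriers 0 of 2. Of the di- and tricarboxylate carriers 1 of 4 was lower, of the ornithine, basic and other amino acid carriers 1 of 4, of the cofactor, nucleotide and glutathione carriers 3 of 11, and of those with a less settled substrate 1 of 5. The single carnitine/acylcarnitine carrier and the 2 carriers like uncoupling proteins were not called. Of all genes tested 11.5% were lower at day 2, and with lists this small these counts show no pattern by solute.

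Slc25a5 was at 497, 513, 469 and 345 FPKM at day 2 and the phosphate carrier Slc25a3 at 431, 468, 353 and 336, each above its 2 controls in every day 2 library. Their log2 changes were 0.50 ± 0.35 and 0.69 ± 0.25 (SE, limma adjusted p = 0.32 and 0.085), short of the threshold. Slc25a39 was at 326, 503, 447 and 303 FPKM, also above both controls, with a change of 0.83 ± 0.29 (SE, limma adjusted p = 0.071). The citrate carrier Slc25a1 was at 171, 169, 147 and 80.8 FPKM at day 2, with controls inside that range, and at 102 and 148 at day 14. Slc25a20, which exchanges acylcarnitines for carnitine in fatty acid oxidation, was at 51.7 and 53.7 FPKM in normal control and at 76.5, 94.8, 46.4 and 59.6 at day 2, so that these groups overlapped, and at 48.1 and 71.5 at day 14.

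Counted without a test, 18 members (47.4%) had day 2 libraries that did not overlap the controls, beside 51.5% of all genes. Of these 8 were higher (21.1%, beside 26.1%) and 10 lower (26.3%, beside 25.4%). The higher ones were Slc25a3, Slc25a4, Slc25a5, Slc25a10, Slc25a12, Slc25a24, Slc25a28 and Slc25a39. Slc25a24 had 3 day 2 libraries at 1 FPKM or more and none in the other groups, so it entered the family's count through day 2 alone, and its place among the higher members follows from the filter. Beside the 6 that passed the test, the lower ones were Slc25a15, Slc25a23, Slc25a25 and Slc25a46.

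**Figure D3:**
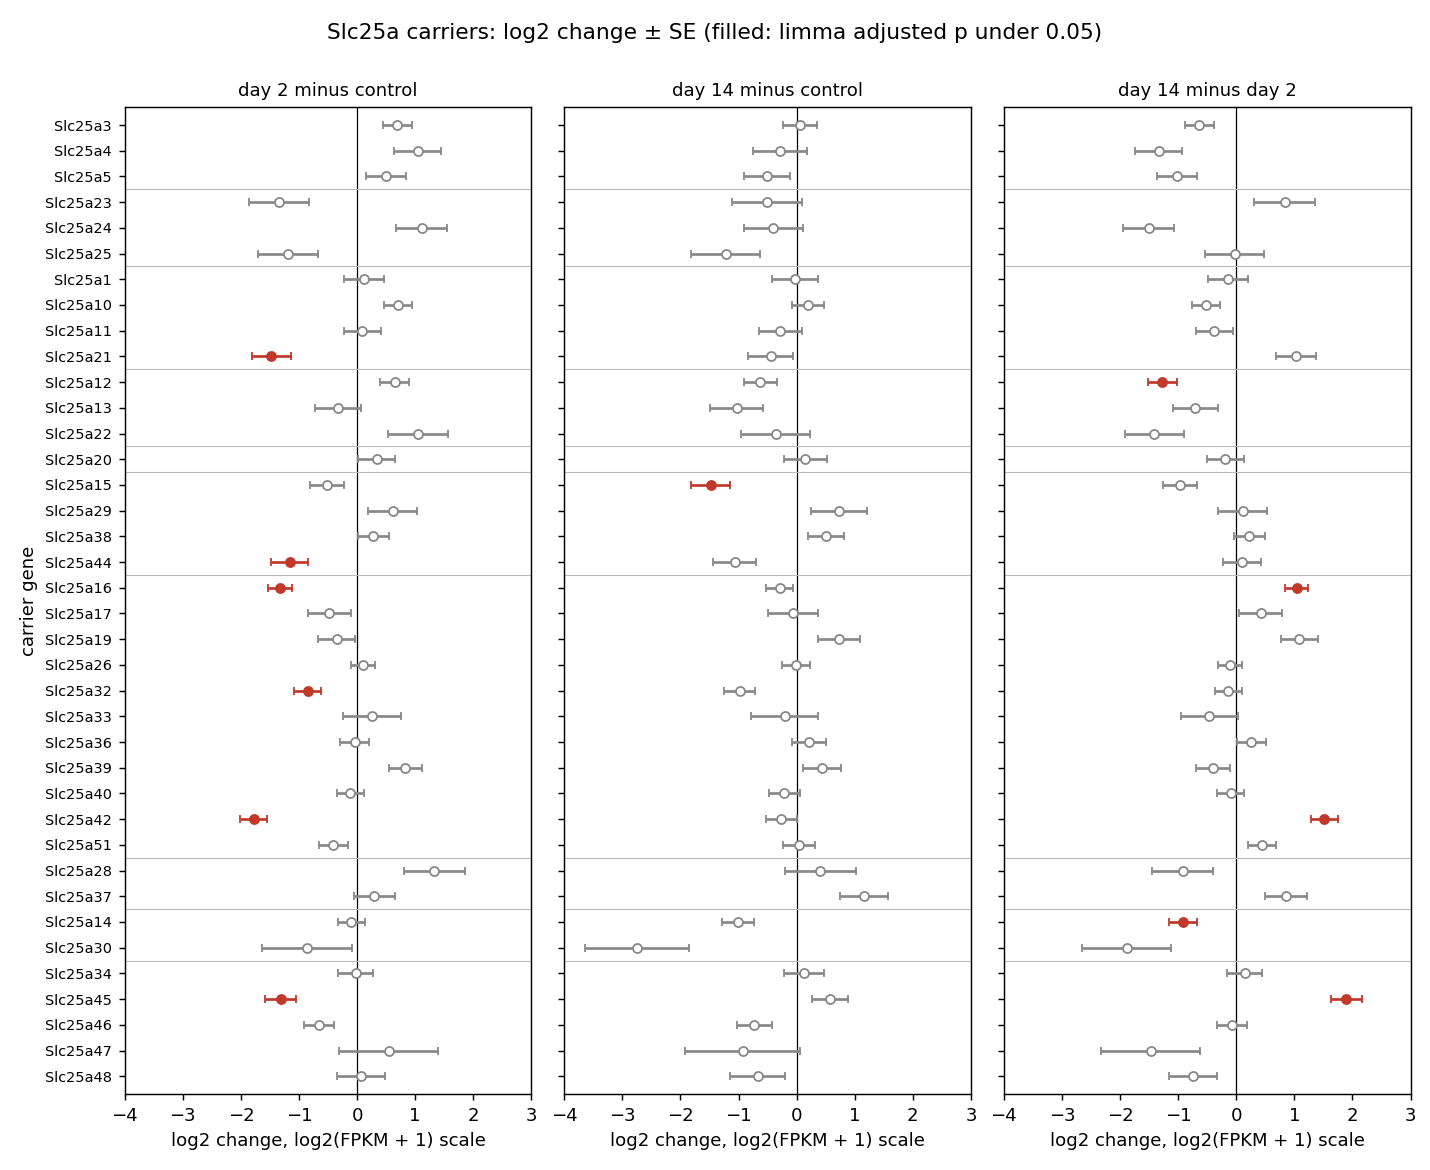
Log2 change of each of the 38 members on the log2(FPKM + 1) scale in the 3 comparisons, day 2 minus control, day 14 minus control and day 14 minus day 2, with bars of 1 SE from limma and filled points for an adjusted p under 0.05. Filled points are 6 at day 2, 1 at day 14 against control and 5 at day 14 against day 2.

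The 4 day 2 libraries differed among themselves more than those of the other groups. For each member the gap between its highest and lowest day 2 library, on the log2(FPKM + 1) scale, had a median of 1.03, beside 0.81 for all genes tested. In the controls the median gap was 0.17 (0.14 for all genes) and at day 14 it was 0.27 (0.33). The control and day 14 gaps are between 2 libraries and the day 2 gap is over 4, so their sizes are not on equal terms. Day 2 replicate 2 was the highest for 16 members and the lowest for 14, and day 2 replicate 3 was the highest for 12 and the lowest for 12.

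Slc25a47, a liver-enriched carrier whose substrate is less settled, had the widest gap at 3.19. It was at 597, 1274, 138 and 143 FPKM at day 2, with both controls (209 and 277) between these pairs, and at 131 and 121 at day 14. Its log2 change at day 2 was 0.54 ± 0.85 (SE, limma adjusted p = 0.67) and came to -0.079 without day 2 replicate 2. On chromosome 12 of GRCm38 162 bases lie between its annotated span and that of Slc25a29, a carrier of basic amino acids on the opposite strand.

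The glutamate carrier Slc25a22 was at 292, 462, 108 and 199 FPKM at day 2, against 92.4 and 135 in the controls and 92.5 and 81.8 at day 14. Day 2 replicate 3 lay among the controls and the other 3 above them. Slc25a28, or mitoferrin-2, which brings iron into the matrix, was at 9.87 and 10.2 FPKM in the controls, at 31.2, 65.6, 15.6 and 15.7 at day 2 and at 12.5 and 14.98 at day 14. Every day 2 library was above every other library, with a change of 1.33 ± 0.53 (SE, limma adjusted p = 0.11). Its counterpart Slc25a37, or mitoferrin-1, known for haem synthesis in red cell precursors, was at 15.9, 18.5, 7.81 and 8.28 FPKM at day 2 beside 9.40 and 9.44 in the controls. The ratio of Slc25a28 to Slc25a37 was 1.05 and 1.08 in the controls, 1.96, 3.55, 2.00 and 1.9 at day 2 and 0.516 and 0.735 at day 14.

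The 2 abundant calcium-regulated ATP-Mg/phosphate carriers differed in which day 2 libraries were low. Slc25a25 was at 97.6, 133, 32.1 and 52.9 FPKM at day 2, lowest in replicate 3, and at 65.8 and 68.9 at day 14. Slc25a23 was at 84.6 and 95.7 FPKM in normal control and at 27.0, 16.4, 78.5 and 41.7 at day 2, highest in replicate 3. The ratio of Slc25a25 to Slc25a23 was 1.67 and 1.85 in the controls and 3.61, 8.13, 0.409 and 1.27 at day 2. Their log2 changes were -1.19 ± 0.51 and -1.34 ± 0.52 (SE, limma adjusted p = 0.13 and 0.10). Slc25a30, a carrier like the uncoupling proteins, was at 21.4 and 7.64 FPKM in normal control and at 22.7, 8.60, 1.63 and 4.83 at day 2, so that its controls already differed widely.

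The proliferation marker Mki67 was at 0.0155, 0.0483, 10.5 and 14.9 FPKM in day 2 replicates 1 to 4, beside 0.346 and 0.511 in the controls. The neutrophil marker S100a8 was at 42.4, 102, 27.4 and 11.7 FPKM in the same order, beside 0.769 and 1.85. Thus Slc25a47 was higher in the day 2 libraries where Mki67 was lower, and the part of proliferation, neutrophils or treatment in that split was not tested. Slc25a42, Slc25a16 and Slc25a45 were low in all 4 libraries of either kind.

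**Figure D4:**
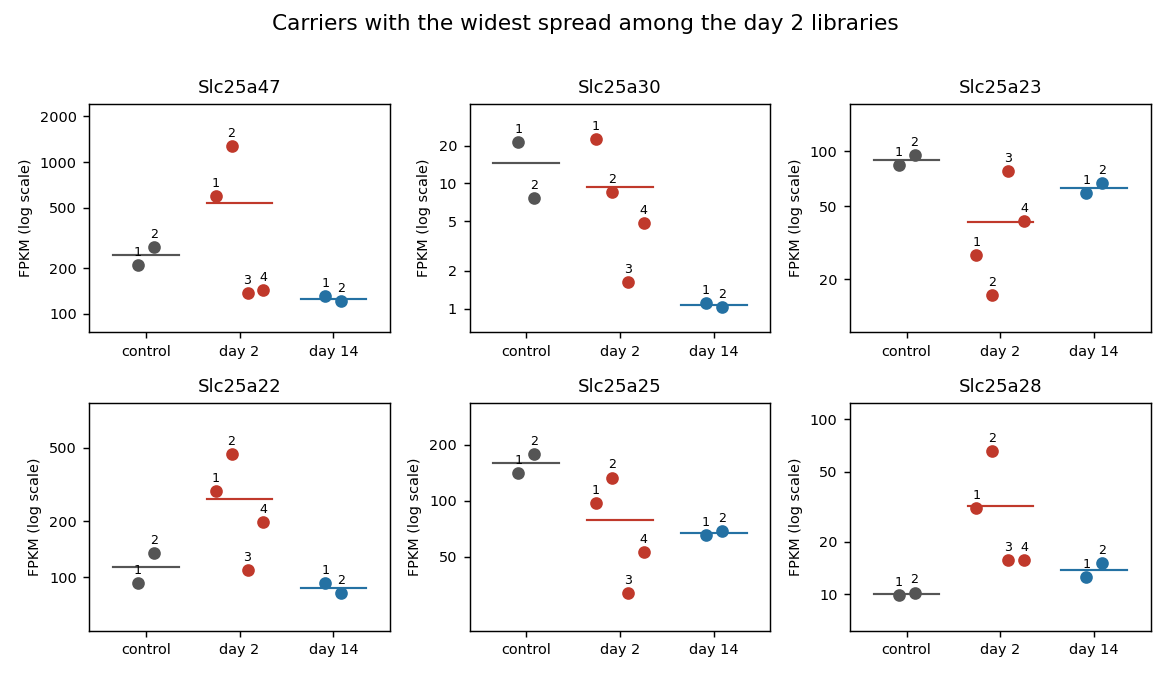
FPKM on a log axis in each library, with numbered points for replicates and lines for group means, for the 6 members with the widest gap between day 2 libraries, Slc25a47, Slc25a30, Slc25a23, Slc25a22, Slc25a25 and Slc25a28. Slc25a47 runs from 138 to 1274 FPKM within day 2, and Slc25a23 is highest in day 2 replicate 3, where Slc25a25 is lowest at 32.1 FPKM.

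At day 14 after hepatectomy 1 carrier fell against normal control and none passed the test as higher. It was Slc25a15, which exchanges cytosolic ornithine for matrix citrulline in the urea cycle. Its share of the members is 2.63%, where 9.79% of all genes tested were called, 5.21% higher and 4.58% lower. Slc25a15 was at 114 and 142 FPKM in the controls, at 82.9, 79.1, 89.2 and 105 at day 2 and at 32.3 and 62.3 at day 14. The 3 groups did not overlap, and both day 14 libraries were the lowest. The log2 change was -1.48 ± 0.34 at day 14 (SE, limma adjusted p = 0.038, 2 against 2 libraries) and -0.52 ± 0.30 at day 2 (SE, limma adjusted p = 0.24). Without day 14 replicate 1 the day 14 change was -1.02 (limma adjusted p = 0.19), without control replicate 1 it was -1.64 (0.20) and without control replicate 2 it was -1.32 (0.26). With the trend with length and GC content removed it was -1.17 (limma adjusted p = 0.079).

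At an unadjusted limma p under 0.05 there were 7 members at day 14 (18.4%), beside 29.8% of all genes. The members' median change at day 14 was -0.27, beside -0.00 for all genes, and 13 of 38 lay above 0. Without day 14 replicate 1 the members' median was -0.18, with 18 of 37 above 0. Without day 14 replicate 2 it was -0.28, with 10 of 38 above 0. With every library scaled to the same total FPKM the median of all genes moved to -0.51 and that of the members to -0.77, with 3 members above 0 and 9 called lower. In that scaling 133 genes of all tested were higher and 1638 lower, against 643 and 565 in the main scale. Day 14 replicate 1 was lower than replicate 2 in 26 of the 38 members and in 6690 of the 12340 genes. Non-overlapping groups were counted in 25 members (65.8%), beside 70.9% of all genes, with 8 higher and 17 lower beside 35.3% and 35.7% of all genes.

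At day 14 Slc25a5 was at 150 and 331 FPKM and Slc25a39 at 257 and 334. Only replicate 1 of Slc25a5 was below its controls, and both libraries of Slc25a39 were above theirs. Several other members lay near the threshold. Slc25a37 was at 24.2 and 20.4 FPKM, above its controls and every day 2 library, with a change of 1.16 ± 0.41 (SE, limma adjusted p = 0.10). Of the erythroid markers, whose cells use this iron carrier, Alas2 was at 138 and 145 FPKM at day 14 and at 73.1 and 76.6 in the controls. At day 2 Slc25a37 was above its controls in replicates 1 and 2 and below them in replicates 3 and 4. Alas2 was at 10.1, 17.7, 15.3 and 21.4 FPKM in day 2 replicates 1 to 4, below every other library. The globins did not share this fall. Hba-a1 was at 183, 662, 138 and 276 FPKM at day 2 against 109 and 85.7 in the controls, and Hbb-bs and Hbb-bt overlapped their controls. The part of red cell precursors was not tested. Slc25a30 was at 1.12 and 1.04 FPKM at day 14, with a change of -2.74 ± 0.89 (SE, limma adjusted p = 0.085). Slc25a32 lay at 2.22 and 2.29 FPKM, inside its day 2 range, and its change from control was -0.98 ± 0.27 (SE, limma adjusted p = 0.056).

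Between day 2 and day 14, 3 carriers rose and 2 fell. Slc25a45, Slc25a42 and Slc25a16 rose, and the aspartate/glutamate carrier Slc25a12 and Slc25a14, a carrier like the uncoupling proteins, fell. The 5 are 13.2% of the members, where 16.1% of all genes tested were called, 9.09% higher and 7.03% lower. This comparison shares its day 2 libraries with the comparison against control, so the rise of the first 3 is not separate evidence of their low day 2 level. The log2 change was 1.896 ± 0.27 for Slc25a45 (SE, limma adjusted p = 0.0066), 1.52 ± 0.23 for Slc25a42 (0.0078) and 1.04 ± 0.20 for Slc25a16 (0.016). Against control at day 14 these 3 stood at 0.58 ± 0.31, -0.26 ± 0.27 and -0.29 ± 0.23 (SE, limma adjusted p = 0.25, 0.55 and 0.45). With every library at the same total FPKM the change of Slc25a16 was 0.59 (limma adjusted p = 0.11).

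Slc25a12, or aralar, and the more abundant liver form Slc25a13, or citrin, export aspartate from the matrix for the malate-aspartate shuttle. Slc25a12 was at 5.61 and 7.10 FPKM in the controls, at 10.2, 13.3, 11.01 and 7.88 at day 2 and at 3.12 and 4.45 at day 14. Its 3 groups did not overlap. The log2 change from day 2 to day 14 was -1.27 ± 0.25 (SE, limma adjusted p = 0.016). Slc25a13 was at 63.7 and 67.1 FPKM in the controls, at 40.5, 36.2, 59.7 and 81.3 at day 2 and at 22.0 and 44.7 at day 14, with no call. The ratio of Slc25a13 to Slc25a12 was 11.3 and 9.45 in the controls, 3.96, 2.72, 5.43 and 10.3 at day 2 and 7.04 and 10.0 at day 14.

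Slc25a14 was at 2.58 and 2.05 FPKM in the controls, at 1.42, 2.09, 2.87 and 2.12 at day 2 and at 0.498 and 0.789 at day 14. Both day 14 libraries were below all others. Its log2 change from day 2 to day 14 was -0.91 ± 0.24 (SE, limma adjusted p = 0.037) and from control to day 14 -1.01 ± 0.27 (adjusted p = 0.054). It was not called without the filter on low values or with only the 2 compared groups (limma adjusted p = 0.073 and 0.071). Leaving out day 2 replicate 3 or day 2 replicate 4 also removed the call. Without day 14 replicate 1 none of these 5 members was called between day 2 and day 14, with log2 changes of 1.74 for Slc25a45, 1.497 for Slc25a42, 0.98 for Slc25a16, -1.07 for Slc25a12 and -0.78 for Slc25a14.

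Non-overlap between day 14 and day 2 was counted in 19 in all (50%), with 7 higher and 12 lower, beside 41.6% of all genes, 21.2% higher and 20.4% lower. The lower ones include Slc25a24, which passed the filter through day 2 alone. At an unadjusted limma p under 0.05 there were 15 (39.5%), Slc25a24 among them, beside 34.0%. The median change was -0.14, beside -0.03 for all genes, and 14 of 38 lay above 0. It was -0.059 without day 14 replicate 1 and -0.38 without day 14 replicate 2. At the same total FPKM these were -0.56, -0.40 and 8, with 2 members called higher and 5 lower. In that scaling 339 genes of all tested were higher and 1403 lower, against 1122 and 868 in the main scale.

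Over the 3 comparisons 9 members were called at least once and 29 were not called. The share of all genes called at least once was not counted, so the 9 cannot be read against it. By chromosome the 38 members lay on 19 different ones. Their median transcript length was 2508 bases (2455.5 for all genes tested) and their median GC content 51.0% (50.5%). The 6 members called at day 2 had a median length of 3142 bases, from 1388 to 5905, and a median GC content of 48.3%. Exons of 12 members overlap those of another gene, on the opposite strand in 10 and on the same strand in 2. Slc25a5 has 1 annotated pseudogene, and how shared reads were divided is not given in the sources used here.

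Genes that work with the carriers were counted from lists, beside the shares of all genes called given above. Their calls are from the main fit alone, and single partner genes were not followed through the alternatives. Of 9 measured genes of the TIM22 route, which inserts carriers into the inner membrane, 4 rose at day 2 (44.4%) and none was called lower. Timm10b, a small chaperone of the space between the membranes, was at 40.5 and 39.5 FPKM in the controls, at 159, 159, 113 and 116 at day 2 and at 95.04 and 95.7 at day 14. Its 3 groups did not overlap, and its change at day 2 was 1.73 ± 0.24 (SE, limma adjusted p = 0.0043). Timm13 and Timm8a1, chaperones of the same kind, rose by 1.39 ± 0.31 and 1.04 ± 0.26 (SE, limma adjusted p = 0.019 and 0.027). Timm22, the channel itself, was the fourth, with control levels of 11.6 and 8.13 FPKM, day 2 levels of 17.0, 22.9, 19.8 and 24.0 and day 14 levels of 3.62 and 7.87. Its change was 1.02 ± 0.30 at day 2 (SE, limma adjusted p = 0.047) and -1.76 ± 0.30 from day 2 to day 14 (adjusted p = 0.011). At day 14 against control Timm10b and Timm9 rose, by 1.23 and 1.84 on the log2 scale, and against day 2 Timm9 rose by 1.26 while Timm22 and Agk fell by 1.76 and 0.87.

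Of the 6 urea cycle enzymes, which Slc25a15 connects across the membrane, Otc and Cps1 fell at day 2 and none was called higher. Otc, which makes citrulline in the matrix, was at 227 and 221 FPKM in the controls, at 17.7, 16.1, 66.1 and 32.7 at day 2 and at 294 and 256 at day 14. It was lowest at day 2, with a change of -2.95 ± 0.51 (SE, limma adjusted p = 0.0091), and rose by 3.24 ± 0.51 from day 2 to day 14 (adjusted p = 0.0087). Cps1, which makes carbamoyl phosphate there, changed by -1.73 ± 0.53 at day 2 (SE, limma adjusted p = 0.0499). Cps1 was at 726 and 827 FPKM in normal control and at 164 and 359 at day 14, where its groups did not overlap and its change from control was -1.67 ± 0.61 (SE, limma adjusted p = 0.11). None of the 6 enzymes was called at day 14 against control. The difference between them and Slc25a15 was not tested.

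Of the 4 malate-aspartate shuttle enzymes Mdh2 rose at day 2 by 1.23 ± 0.32 (SE, limma adjusted p = 0.033). Mdh1 went the other way and was below both controls in every day 2 library. Its change was -1.30 ± 0.40 (SE, limma adjusted p = 0.052), short of the threshold. Got2, the matrix aspartate aminotransferase, was at 247 and 259 FPKM in the controls, at 171, 235, 293 and 190 at day 2 and at 69.1 and 119 at day 14. Both day 14 libraries were below all others, with changes of -1.47 ± 0.36 against control and -1.25 ± 0.31 against day 2 (SE, limma adjusted p = 0.044 and 0.033). Of the 5 carnitine shuttle genes Crat rose by 0.96 and the peroxisomal Crot fell by 1.88 at day 2 on the log2 scale. At day 14 Crot lay lower than control by a log2 change of -2.20, and Crat fell by 1.15 from day 2. Of the 6 genes of citrate export and lipogenesis Me1, the cytosolic malic enzyme, fell by 0.94 ± 0.29 at day 2 (SE, limma adjusted p = 0.0499). Of the 5 genes of the pyruvate carrier and the outer membrane VDAC channels Vdac2 rose by 0.92 ± 0.22 at day 2 (SE, limma adjusted p = 0.025). Among relatives under other names, Mtch2 rose by 1.02 ± 0.25 from day 2 to day 14 (SE, limma adjusted p = 0.033), and Ucp2 and Mtch1 were not called in any comparison.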

How the data were processed

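The deposited table gives gene-level FPKM for 8 libraries, made by the authors. The submitters' processing notes name the builds GRCm38 and mm9 and the tools Cufflinks 2.2.1, DESeq2, HISAT2 2.10 and HTSeq without saying what each did, and which of them made the FPKM values is not given in the sources used here. The members and gene lists were chosen with earlier results of these data known.

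The scale used was log2(FPKM + 1). A gene entered the test when 2 or more libraries had 1 FPKM or more. In R 4.3.3, limma 3.58.1 fitted 3 group means over all 8 libraries, and its variances were moderated along a trend with level (prior degrees of freedom 3.23, residual 5). The p-values were adjusted over 12340 genes by Benjamini-Hochberg with a threshold of 0.05, and the fit was tested on simulated data. Full values are given for called members and for the most abundant member of each role list. The other values named, such as those of Slc25a3, Slc25a4, Slc25a13, Slc25a23, Slc25a32 at day 14, Slc25a36, Slc25a37 and Slc25a40, were chosen after they were seen. Partner genes were named where called, up to 3 in a list by size of change, and Timm22 and Mdh1 at day 2 were added to these after their values were seen. Gene coordinates, transcript lengths and GC content are from GENCODE M21 (GRCm38), and promoters from RefSeq. Alternatives tried were no filter, a pseudocount of 0.1, a filter at 5 FPKM, median-ratio scaling, the same total FPKM, only the 2 compared groups, no trend, removal of the trend with length and GC content (splines of 4 degrees of freedom, 12307 genes), and leaving out each library. Figures used matplotlib 3.10.9 in Python 3.11.15.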

Additional observations from a re-analysis of the deposited data

Results flagged for a closer look

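Slc25a29, the carrier of basic amino acids next to Slc25a47, was at 4.68 FPKM in day 2 replicate 2 and at 1.56, 1.32 and 0.932 FPKM in day 2 replicates 1, 3 and 4. It stood apart because the gap from this library to the next made 0.831 of the range of the 4 day 2 libraries, above Dixon's 95% critical value for 4 values. On the log2(FPKM + 1) scale the gap made 0.737 of the range, below that value. It was the only member so marked of the 38, and about 5% of groups are marked by chance. The same library had the highest Slc25a47 value, at 1274 FPKM.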

How the results depend on the processing

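No paired analysis was possible because fewer than 2 of the numbers in the library titles are shared between the groups compared. The replicate numbers used in this report do not link libraries across groups. The titles of day 2 replicate 1 and day 14 replicate 1 begin with the same number. Whether these libraries are linked is not stated, and the test treated them as independent. Among all genes, calls came to 1657 at day 2 against control with the length and GC trend removed (2620 in the main fit). At day 14 against control they came to 691 with no filter, 2664 with only the 2 compared groups and 506 with that trend removed (1208), and at day 14 against day 2 to 982 with only the 2 groups (1990). Members called at day 14 against control were 2 with a pseudocount of 0.1, 0 with no filter, 9 at the same total FPKM, 7 with only the 2 groups (1 higher, 6 lower) and 0 with the trend removed (1 in the main fit). At the same total FPKM, calls at day 2 against control were 553 higher and 1331 lower (1200 and 1420 in the main fit).

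Leaving out 1 library gave 92 to 2971 genes and 0 to 9 members at day 2 against control, 0 to 662 genes and 0 to 1 members at day 14 against control, and 17 to 2472 genes and 0 to 9 members at day 14 against day 2. Counts of 0 members came without either control, or without day 14 replicate 1 in the day 14 comparisons, and 9 without day 2 replicate 3. Each count of 9 includes Slc25a24, which passed the filter through day 2 alone. Slc25a42, Slc25a16, Slc25a21 and Slc25a45 kept their day 2 call in all 8 alternatives that left no library out.

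Directions turned only for members not called. At day 2 against control Slc25a1 came to -0.088 at the same total and -0.33 with the trend removed. At day 14 against control Slc25a20 came to -0.52, Slc25a39 to -0.25 and Slc25a28 to -0.22 at the same total, and Slc25a28 to -0.21 with the trend removed. At day 14 against day 2 Slc25a25 came to 0.047 with the trend removed. Leaving out 1 library gave -0.079 (without day 2 replicate 2) to 0.99 (without day 2 replicate 3) for Slc25a47 at day 2 against control. At day 14 against control it gave -1.08 to 0.057 for Slc25a5 and -0.30 to 0.24 for Slc25a1, each highest without day 14 replicate 1, and -0.13 to 0.43 for Slc25a20, lowest without day 14 replicate 2. At day 14 against day 2 it gave -0.39 to 0.29 for Slc25a25, above 0 without day 2 replicates 1 or 2 or day 14 replicate 1, and -0.42 to 0.12 for Slc25a1 and -0.47 to 0.094 for Slc25a20, above 0 without day 14 replicate 1. The cause was not tested. FPKM carries no depth, so no counting error is given.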
